A study of Mus musculus with 6 samples.

Results

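The DNA replication and S phase genes examined here were 34 genes, chosen by name from the 20822 genes of the deposited count table, and all 34 were found there. By role they were 10 genes of origin licensing and the MCM helicase (Mcm2, Mcm3, Mcm4, Mcm5, Mcm6, Mcm7, Cdc6, Cdt1, Gmnn and Orc6), 2 of helicase activation (Cdc45 and Gins2) and 9 of primase, polymerases and the fork (Pola1, Prim1, Prim2, Pole, Pcna, Rfc4, Rpa2, Fen1 and Lig1). A further 5 supply nucleotides (Rrm1, Rrm2, Tyms, Dut and Tk1), 5 act on new chromatin and histone mRNA (Chaf1a, Chaf1b, Uhrf1, Hells and Slbp) and 3 control entry into S phase (E2f1, Ccne1 and Ccne2). Single cells of retina were profiled by Drop-seq, a droplet method that counts the 3′ ends of transcripts with unique molecular identifiers (UMIs). Each of the 3 eNOS+/+ replicates (C57BL/6J) and 3 eNOS-/- replicates pooled 3 to 5 retinas of P14 mice after oxygen-induced retinopathy (OIR), in which pups breathed 75% oxygen from P7 to P12, and cells were enriched with beads carrying CD31 antibody. The eNOS-/- mice were homozygous for a germline knockout allele of Nos3, the gene of endothelial nitric oxide synthase, in every cell type, on a C57BL/6J background. Endothelial cells (ECs) carried the deposited labels Tip ECs, Proliferative ECs and ECs, the last of which is called Structural ECs below, as in the study.

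Before S phase, the origin recognition complex with Cdc6 and Cdt1 loads the MCM helicase onto DNA, and geminin, the product of Gmnn, later blocks Cdt1 so that no origin fires again in the same cycle. Cdc45 and the GINS complex turn the loaded MCM ring into an active helicase, primase and polymerases copy the strands around the sliding clamp PCNA, and ribonucleotide reductase and thymidylate synthase supply the nucleotides. In a growing retinal vascular bed, division is concentrated in the ECs behind the sprout tips, whereas rods and other neurons at this age have left the cell cycle.

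Many S phase promoters are bound by E2F factors, so the promoter letters of these genes are shown first. RefSeq windows of 250 bases before to 50 bases after the annotated start (GRCm38.p6) were matched for 28 of the 34 genes. Pole, Gmnn, Mcm4, Ccne2, Gins2 and Prim2 had no window in the table. The E2F-type spellings TTTCCCGC, TTTCGCGC, TTTGCCGC and TTTGGCGC were searched on both strands, and matches on opposite strands can overlap. A match was found for 10 of the 28 genes (35.7%), namely Mcm3, Mcm5, Mcm6, Mcm7, Cdc6, Cdt1, Lig1, Pola1, Uhrf1 and Hells. The same spellings were present for 5.06% of the 7407 matched genes that were tested in ECs and for 2.61% of the 27025 genes in the whole table. With TTTCGCGC and TTTGGCGC alone the shares were 28.6%, 1.94% and 0.929%. Of the 6 MCM ring genes, 5 had a window and 4 of these had a match. A match says only that these letters are present. The stretches below show a site in a gene of licensing (Cdc6), in MCM ring genes with overlapping matches on both strands (Mcm5 and Mcm6), in a polymerase gene (Pola1) and in a chromatin gene (Hells), with matched letters in capitals, 5′ to 3′ on the strand of the gene.
Mcm5, chr8:75109324-75109403, plus strand, 185 to 106 bases before the start: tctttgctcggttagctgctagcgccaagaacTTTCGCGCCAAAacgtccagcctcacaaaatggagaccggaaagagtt
Mcm6, chr1:128359731-128359830, minus strand, 125 to 26 bases before the start: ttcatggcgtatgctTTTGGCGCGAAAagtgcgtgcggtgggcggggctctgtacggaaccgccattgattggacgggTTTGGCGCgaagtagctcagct
Pola1, chrX:93632256-93632335, minus strand, 180 to 101 bases before the start: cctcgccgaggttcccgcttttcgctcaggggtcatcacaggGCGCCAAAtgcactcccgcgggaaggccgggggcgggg
Cdc6, chr11:98908003-98908031, plus strand, 148 to 120 bases before the start: ccggtggagaGCGGGAAAtcgcctggggt
Hells, chr19:38930918-38930946, plus strand, 72 to 44 bases before the start: accaccgggtTTTCCCGCgaaagagaagc

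The table held 8944 cells and 10361314 UMIs, with 613 to 1399 cells in each eNOS+/+ replicate and 415 to 3710 in each eNOS-/- replicate, and 288 to 2266 ECs per replicate. These EC totals are higher than the EC numbers that the study states. Between replicates of 1 genotype 0 cell barcodes recurred, and 3 barcodes occurred in 2 replicates of different genotype. Nos3, the targeted gene, was at 19.4, 36.6 and 23.6 CPM (counts per 1000000 UMIs) in the sum of all ECs in the eNOS+/+ replicates and at 21.2, 16.1 and 32.8 CPM in the eNOS-/- replicates (log2 fold change -0.29 ± 0.35 SE, adjusted p = 0.969, edgeR), so its 3′ UMIs do not check the genotype labels. EC marker genes were present in all 3 EC labels at 4813 to 7418 CPM. Proliferative ECs held the fewest UMIs of the EC labels, with 117, 141 and 151 cells in the eNOS+/+ replicates and 312, 406 and 35 cells in the eNOS-/- replicates. In the replicate with 35 such cells, eNOS-/- replicate 3, 3 UMIs were worth 38.4 CPM, against 4.49 to 14.5 CPM in the other replicates, and its Structural ECs carried 4186 CPM of mural marker genes against 42.4 to 191 CPM elsewhere. Red cell marker genes were at 20.0 to 12532.5 CPM in the replicates of Structural ECs. They were at 13.8 to 302 CPM in Tip ECs and at 9.66 to 63.1 CPM in Proliferative ECs. Their part in the levels of Structural ECs was not tested. Values below are CPM of the UMIs summed over the cells of a label in a replicate. A sum cannot tell apart fewer cells that express a gene and fewer transcripts per cell. Levels of single genes are compared between labels and replicates and not between genes.

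The 34 genes were highest in Proliferative ECs. This label held 13.0% of the cells and 19.5% of all UMIs, but 47.8% of the 15539 UMIs of the 34 genes. The summed level of the 34 genes in Proliferative ECs was 4005, 3266 and 3064 CPM in the eNOS+/+ replicates and 3692, 4020 and 3223 CPM in the eNOS-/- replicates. In Structural ECs it was 1278, 1190 and 1005 CPM and 1090, 1042 and 1289 CPM, and in Tip ECs 594, 828 and 680 CPM and 614, 741 and 540 CPM. The ranges of the 3 labels did not overlap. Within a replicate, Proliferative ECs exceeded Structural ECs by 2.50 to 3.86 times and Tip ECs by 3.94 to 6.74 times. The labels were drawn by the authors from the same UMIs, so these ratios describe the labels and were not tested.

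**Figure D1:**
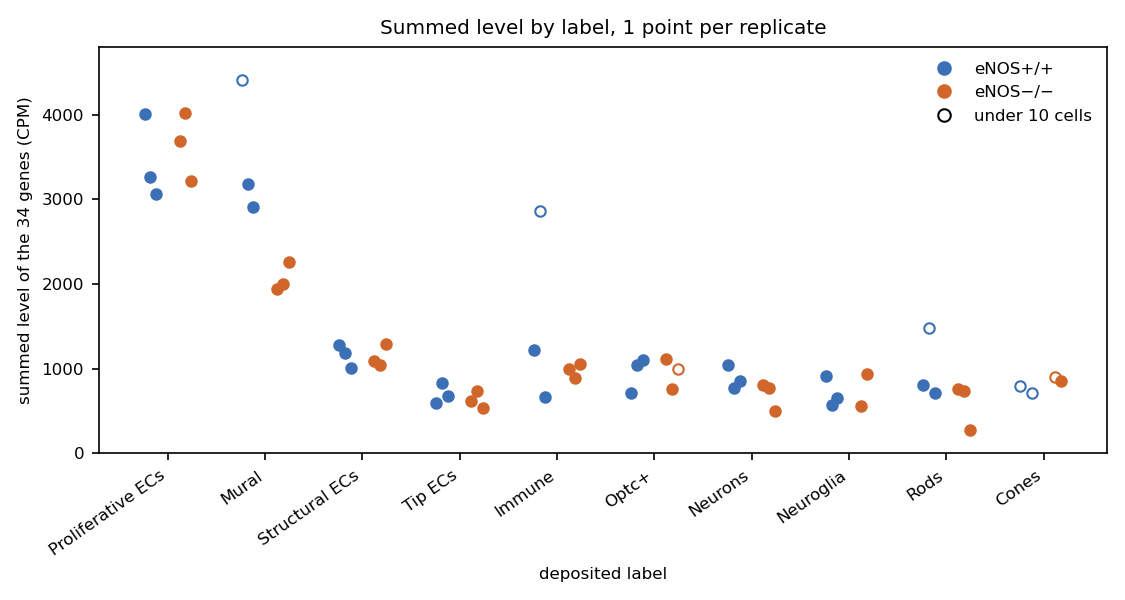
Summed level of the 34 genes (CPM, vertical axis) in each deposited label (horizontal axis), with 1 point for each replicate, eNOS+/+ in blue, eNOS-/- in orange, and open circles for sums of under 10 cells. Proliferative ECs lie between 3064 and 4020 CPM, Structural ECs between 1005 and 1289 CPM and Tip ECs between 540 and 828 CPM.

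Gene by gene, 26 of the 34 were higher in Proliferative ECs than in both other EC labels in 6 of 6 replicates. The same held for 4.62% of the 9483 genes tested in all ECs. A further 6 genes (Mcm6, Rpa2, Fen1, Rrm1, Chaf1a and Chaf1b) were highest there in 5 of 6 replicates, and Prim2 and Pole in 3. Without eNOS-/- replicate 3 the number highest in every remaining replicate was 31. On pooled UMIs the ratio of Proliferative to Structural ECs ran from 1.22 (Prim2) to 10.2 (Rrm2) with a median of 3.46, and that of Proliferative to Tip ECs from 1.12 (Prim2) to 74.9 (Rrm2) with a median of 6.78. Structural ECs were above Tip ECs on pooled UMIs for 32 of the 34 genes, the exceptions being Mcm6 and Prim2, and in 6 of 6 replicates for 10 genes. For this order of Structural and Tip ECs the share over all genes was not computed, so no excess is read from it.

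**Figure D2:**
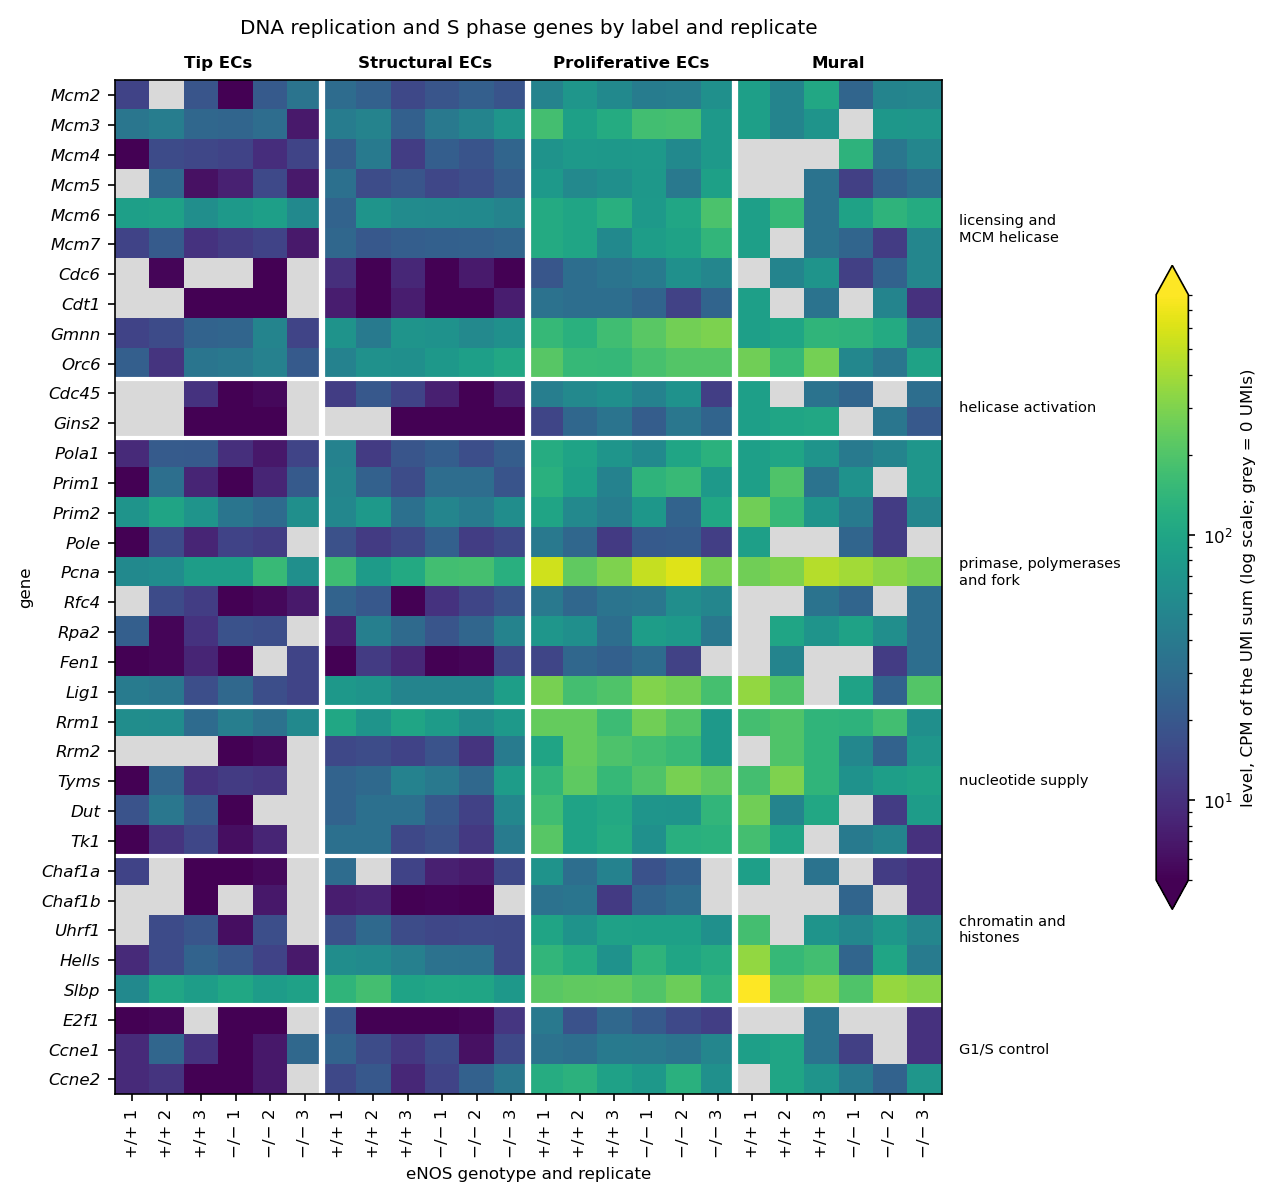
Level of each of the 34 genes (rows, grouped by role) in every replicate (columns) of Tip ECs, Structural ECs, Proliferative ECs and Mural cells, on a log colour scale of CPM with grey for 0 UMIs. The Proliferative EC columns are brighter than the other EC columns for most rows, whereas the rows of Mcm6, Prim2 and Slbp are bright in several labels.

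Licensing genes displayed pooled ratios of Proliferative to Structural ECs of 1.86 to 7.29, and 9 of the 10 were highest in Proliferative ECs in every replicate. Geminin (Gmnn, chr13:24751845-24761923, minus strand in the GENCODE annotation of GRCm38) was at 149.8, 126 and 169.6 CPM in the eNOS+/+ replicates and at 219.9, 270.4 and 294 CPM in the eNOS-/- replicates of Proliferative ECs, against 40.5 to 69.3 CPM in Structural ECs and 13.8 to 48.9 CPM in Tip ECs. Orc6, a subunit of the origin recognition complex (chr8:85299632-85308278, plus strand), was at 213, 148 and 146 CPM and at 182, 206 and 205 CPM, against 47.4 to 105 CPM in Structural ECs and 10.7 to 46.1 CPM in Tip ECs. Neither gene overlapped between Proliferative ECs and the other EC labels. The loading factors Cdc6 and Cdt1 were sparse, with 89 and 49 UMIs in all Proliferative ECs, and their ratios to Structural ECs were 7.29 and 5.35.

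The 6 subunits of the MCM ring are loaded together, yet their mRNAs did not follow the EC labels alike. In Proliferative ECs, Mcm3 was at 174, 90.0 and 114 CPM in the eNOS+/+ replicates and at 172, 177 and 76.7 CPM in the eNOS-/- replicates. Mcm7 was at 111, 99.0 and 55.2 CPM and at 83.8, 92.9 and 141 CPM. Mcm4 was the steadiest of the 6 in Proliferative ECs, at 67.6, 76.5 and 74.9 CPM and at 77.8, 55.8 and 76.7 CPM, with the genotypes overlapping for all 3 of these genes. Mcm5 was at 77.3, 54.0 and 63.1 CPM and at 74.8, 38.9 and 89.5 CPM. Mcm2 was at 48.3, 72.0 and 55.2 CPM and at 41.9, 43.9 and 63.9 CPM. For Mcm2, Mcm3, Mcm4, Mcm5 and Mcm7 the pooled ratio to Structural ECs was 2.34 to 3.74, and all 5 were higher in Proliferative ECs than in both other EC labels in 6 of 6 replicates.

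Mcm6 stood apart (chr1:128331590-128359664, minus strand). In Tip ECs it was at 87.6, 90.8 and 61.0 CPM in the eNOS+/+ replicates and at 77.8, 88.0 and 56.1 CPM in the eNOS-/- replicates. In Structural ECs it was at 25.0, 68.8 and 57.9 CPM and at 56.7, 55.4 and 48.6 CPM, and in Proliferative ECs at 111, 99.0 and 122 CPM and at 76.3, 101 and 192 CPM. It was thus higher in Tip than in Structural ECs in 6 of 6 replicates, which held for no other of the 34 genes. On pooled UMIs it was at 78.2 CPM in Tip ECs, 53.6 CPM in Structural ECs, 99.9 CPM in Proliferative ECs and 108 CPM in Mural cells. In rods it was at 6.09 CPM.

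Cdc45 and Gins2, which activate the loaded helicase, had pooled ratios of 5.79 and 8.62 to Structural ECs and were highest in Proliferative ECs in every replicate. Cdc45 (chr16:18780447-18811987, minus strand) was at 43.5, 54.0 and 63.1 CPM in the eNOS+/+ replicates and at 47.9, 65.9 and 12.8 CPM in the eNOS-/- replicates of Proliferative ECs, the last of these being under the level of 3 UMIs. Gins2 was at 14.5, 27.0 and 35.5 CPM and at 22.4, 37.2 and 25.6 CPM, and at 0 to 4.47 CPM in Structural ECs and 0 to 4.21 CPM in Tip ECs. Its 25.6 CPM in eNOS-/- replicate 3 was also under the level of 3 UMIs.

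The fork genes were the most mixed role, with ratios of 1.22 to 4.70 to Structural ECs and 5 of 9 highest in Proliferative ECs in every replicate. Pcna, the sliding clamp (chr2:132249162-132253314, minus strand), was at 551, 234 and 299.7 CPM in the eNOS+/+ replicates and at 510.1, 622 and 281 CPM in the eNOS-/- replicates of Proliferative ECs. It was at 81.0 to 179.7 CPM in Structural ECs and at 55.3 to 154 CPM in Tip ECs, below every Proliferative EC value. Lig1, the ligase that joins Okazaki fragments (chr7:13277283-13311433, plus strand), was at 285, 175 and 197 CPM and at 304, 272 and 179 CPM, against 48.9 to 86.0 CPM in Structural ECs and 14.0 to 41.5 CPM in Tip ECs. The 2 primase subunits differed. Prim1, the catalytic subunit, had a pooled ratio of 4.26 to Structural ECs and was highest in Proliferative ECs in 6 of 6 replicates, whereas Prim2, the large subunit, hardly followed the labels, with pooled levels of 56.9 CPM in Proliferative, 46.8 CPM in Structural and 50.9 CPM in Tip ECs and 76.2 CPM in rods.

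Nucleotide supply held the steepest member. Rrm2, the subunit of ribonucleotide reductase whose level is tied to S phase (chr12:24708241-24714146, plus strand), had 338 UMIs in Proliferative ECs, 65 in Structural ECs and 5 in Tip ECs. It was at 96.6, 243 and 193 CPM in the eNOS+/+ replicates and at 174, 157 and 76.7 CPM in the eNOS-/- replicates of Proliferative ECs, against 10.7 to 41.1 CPM in Structural ECs. Rrm1, the large subunit of the same enzyme, was less steep, at 242, 243 and 162 CPM and at 265, 201 and 76.7 CPM in Proliferative ECs and at 59.9 to 102 CPM in Structural ECs, where only the value of eNOS-/- replicate 3 overlapped. Tyms, thymidylate synthase (chr5:30058202-30073617, minus strand), was at 140.1, 229 and 149.9 CPM and at 199, 284 and 230.2 CPM, with no overlap with Structural ECs (25.0 to 82.2 CPM). The pooled ratios to Structural ECs were 5.61 for Tyms, 5.62 for Tk1, 3.73 for Dut and 2.76 for Rrm1.

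Of the chromatin and histone genes, Slbp, which binds the stem-loop of histone mRNA (chr5:33634952-33652574, minus strand), was at 217, 234 and 237 CPM in the eNOS+/+ replicates and at 202, 257 and 141 CPM in the eNOS-/- replicates of Proliferative ECs. Its ratio to Structural ECs was the lowest of this role at 2.13, and it was also at 101 CPM in rods. Hells, a chromatin remodeller tied to DNA methylation (chr19:38930915-38971051, plus strand), was at 140.1, 112 and 67.0 CPM and at 135, 98.0 and 115 CPM, against 14.9 to 59.9 CPM in Structural ECs. Uhrf1, which recognises newly copied methylated DNA, had a ratio of 5.32, and the chromatin assembly factor genes Chaf1a and Chaf1b had 59 and 53 UMIs in Proliferative ECs and 0 UMIs there in eNOS-/- replicate 3, which allows up to 38.4 CPM.

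The 3 genes of S phase entry were highest in Proliferative ECs in every replicate. Cyclin E2 (Ccne2, chr4:11191351-11204779, plus strand) was at 116, 130.4 and 90.7 CPM in the eNOS+/+ replicates and at 74.8, 125 and 63.9 CPM in the eNOS-/- replicates, against 8.82 to 37.4 CPM in Structural ECs. Cyclin E1 (Ccne1) was at 33.82, 31.5 and 39.4 CPM and at 38.9, 35.5 and 51.2 CPM, against 6.26 to 25.0 CPM in Structural ECs and 1.99 to 28.1 CPM in Tip ECs. The ratios to Structural ECs were 5.67 for Ccne2, 2.83 for Ccne1 and 3.38 for E2f1, the last on 43 UMIs in Proliferative ECs. E2f1 was lowest there in eNOS-/- replicate 3, at 12.8 CPM, under the level of 3 UMIs (38.4 CPM).

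Outside the ECs, Mural cells (pericytes and smooth muscle cells) were the other label with high levels. The 214 Mural cells held 726 UMIs of the 34 genes, or 2311 CPM pooled, and were higher than Structural ECs on pooled UMIs for 33 of the 34 genes. By replicate the order was less regular, with 5 genes above Structural ECs in 6 of 6 replicates and 16 in 5 or 6. In the Mural sum of eNOS+/+ replicate 1, 3 UMIs were worth 265 CPM, so 1 UMI can decide the order of a gene there. The shares over all genes were not computed for Mural cells, so no excess is read from these counts. The summed level was 4416 CPM in eNOS+/+ replicate 1, which had 3 Mural cells, 3176 and 2915 CPM in the other eNOS+/+ replicates and 1938, 1999 and 2259 CPM in the eNOS-/- replicates. Every replicate was above its own Structural ECs, by 1.75 to 3.46 times. Slbp was at 795, 248 and 312 CPM and at 198, 356 and 321 CPM in Mural cells. It exceeded Proliferative ECs in 5 of 6 replicates. Mcm2, Mcm6 and Gins2 were the other genes with a higher pooled level in Mural cells than in Proliferative ECs. Their pooled levels were close, at 50.93 against 48.98, 108.2 against 99.93 and 35.01 against 28.20 CPM, on 16, 34 and 11 Mural UMIs. None of the 34 genes was above Proliferative ECs in 6 of 6 replicates, and these differences were not tested. Pcna was at 265, 298 and 451 CPM and at 395, 331 and 290.2 CPM in Mural cells. For 10 of the 34 genes the Mural label held under 10 UMIs.

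The 91 Mural cells with at least 2 UMIs of the 34 genes (median 1621 UMIs per cell) had 1201 CPM of EC markers and 25176 CPM of mural markers, and the 90 with none (median 453.5) had 1724 and 28582 CPM. The depth of these cells differed, and the part of EC transcripts in the Mural level was not tested. Structural ECs with at least 2 such UMIs had 6117 CPM of EC markers. The eNOS+/+ Mural sums of at least 10 cells were above the 3 eNOS-/- Mural sums with no overlap, and mural markers ran the opposite way, lower in eNOS+/+, at 17520.3 and 16275 CPM against 27655 to 29537 CPM. The part of the cell makeup of the label in this difference was not tested.

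The remaining labels lay below Structural ECs (1098 CPM) on pooled UMIs, at 991 CPM in Optc+ cells, 938 CPM in Immune cells, 832 CPM in Cones, 804 CPM in Neurons, 799 CPM in Neuroglia and 760 CPM in Rods. Rods have left the cell cycle and serve here as the label that should lack replication. In 656387 UMIs of rods, 499 came from the 34 genes, and 52.3% of these came from Pcna, Slbp, Prim2 and Orc6. Mcm2, Cdc6 and E2f1 had 0 UMIs in rods, which allows up to 4.57 CPM, and 7 genes had 1 to 3 UMIs. Tip ECs, at 680 CPM pooled, were below rods as a sum, but Mcm2 was at 14.7 CPM in Tip ECs against 0 UMIs in rods and Mcm6 at 78.2 against 6.09 CPM.

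To compare shares of cells at equal depth, cells with at least 500 UMIs (4861 cells) were thinned to 500 UMIs each. At least 2 UMIs of the 34 genes were then found in 47.7% of Proliferative ECs (95% Wilson interval 44.3 to 51.2%), 26.5% of Mural cells (20.1 to 34.2%), 10.1% of Structural ECs (8.77 to 11.7%), 10.5% of Immune cells (6.12 to 17.50%), 5.70% of rods (3.86 to 8.34%) and 4.86% of Tip ECs (3.73 to 6.30%). The intervals cover counting error only. The share in Tip ECs was not above that in rods. The replicates of Proliferative ECs ran from 39.1 to 51.4%, with the genotypes overlapping. In cells that were not thinned, at least 1 such UMI was found in 80.8% of Proliferative ECs (median 963.5 UMIs per cell), 49.8% of Tip ECs (median 1007) and 23.2% of rods (median 361).

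Replication and mitosis transcripts were set beside each other with 24 mitosis genes, among them Top2a, Mki67 and Ccnb1. In Proliferative ECs the ratio of UMIs of the 34 genes to UMIs of the mitosis genes was 0.537, 0.625 and 0.563 in eNOS+/+, and 0.573, 0.639 and 1.04 in eNOS-/-. The ratio of 1.04 came from eNOS-/- replicate 3 (95% counting interval 0.873 to 1.24), which stood above the others on 35 cells. Structural ECs were at 0.610 to 1.63 and Tip ECs at 0.828 to 5.86. UMIs of the 24 mitosis genes thus outnumbered those of the 34 genes in 5 of 6 replicates of Proliferative ECs. The same held in 1 of 6 replicates of Structural ECs and in 1 of 6 of Tip ECs. The lists hold different genes, so the ratios are read between labels and replicates only. The mitosis genes also separated the EC labels more widely in most replicates, by 2.46 to 9.52 times between Proliferative and Structural ECs, and this excess was larger than that of the 34 genes in 5 of 6 replicates. The study describes Proliferative ECs by Top2a and Mki67, so these differences are partly given by the label and were not tested. Without Top2a and Mki67 the ratio in Proliferative ECs was 0.715, 0.854 and 0.728 in eNOS+/+, and 0.780, 0.845 and 1.35 in eNOS-/-.

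**Figure D3:**
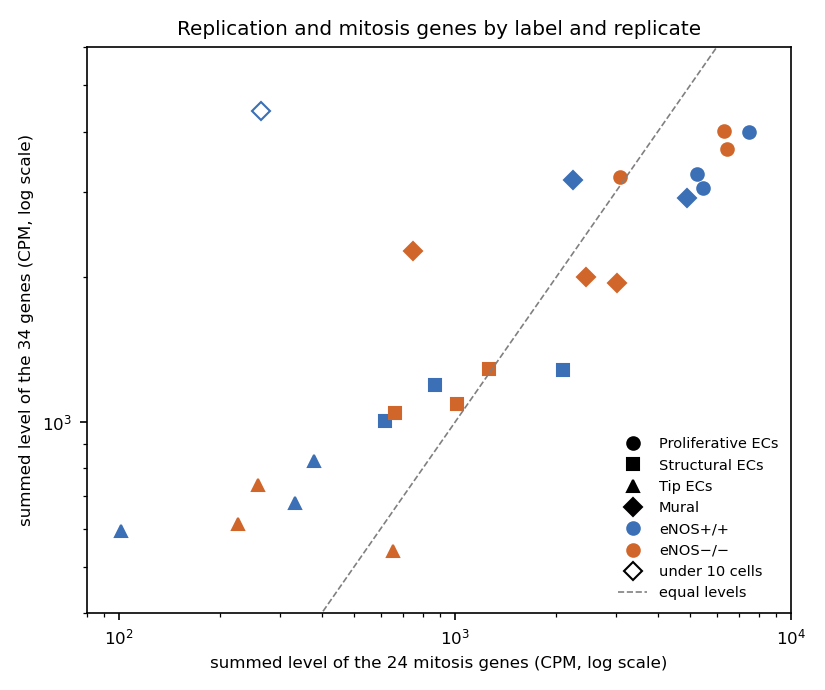
Summed level of the 34 genes (CPM, log scale, vertical axis) against that of 24 mitosis genes (CPM, log scale, horizontal axis), with shapes for the labels, colours for the genotypes, 1 point for each replicate and a dashed line where both are equal. Of the 6 points of Proliferative ECs, 5 lie right of the line, and the Tip EC points lie left of it except for eNOS-/- replicate 3.

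At the level of single Proliferative ECs thinned to 500 UMIs, 30.7% held at least 2 UMIs of both lists, 17.0% of the replication list only, 38.4% of the mitosis list only and 13.9% of neither. In every label outside Proliferative ECs the replication list alone was more frequent than both lists together. In Mural cells this was 17.7% against 8.84%, with 13.6% for the mitosis list only. It was 8.14% against 2.00% in Structural ECs and 4.77% against 0.0917% in Tip ECs. Rods had the same order, at 5.46% against 0.238%.

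The deposited table also gives a cell cycle phase for each cell, computed by the authors from scores over S phase and G2/M genes. Such scores use genes of the same kind as the 34, so a higher level in S-called cells is partly given by construction and was not tested. Of the 1162 Proliferative ECs, 356 were called S, 778 G2M and 28 G1. The summed level of the 34 genes was 5382 CPM in the S-called and 2982 CPM in the G2M-called Proliferative ECs. Phase calls alone do not show cycling cells, since 21.2% of rods were called S and 21.4% G2M. S-called cells differed widely between labels, with 5807 CPM in 66 Mural cells, 1963 CPM in Structural ECs, 1760 CPM in rods and 1292 CPM in Tip ECs.

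Within Proliferative ECs, 31 of the 34 genes were higher in S-called than in G2M-called cells on pooled UMIs, 12 of them in 6 of 6 replicates, or 16 when eNOS-/- replicate 3, with 12 S-called cells, was left out. The shares over all genes were not computed for the 2 calls, so no excess is read from these counts. The 6 largest ratios belonged to genes of helicase activation, S phase entry, licensing and chromatin. This order may also be partly given by the scores and was not tested. Cdc45 was at 116 against 28.5 CPM (ratio 4.06), E2f1 had a ratio of 3.60, Mcm2 of 3.47, Ccne2 of 3.10, Hells of 3.01 and Cdc6 of 2.88. The MCM ring genes ran from 1.52 (Mcm7) to 3.47 (Mcm2), and Gmnn was at 1.43. Tk1 (0.784), Fen1 (0.808, 43 UMIs) and Rrm1 (0.923) were higher in the G2M-called cells on pooled UMIs, with Tk1 higher there in 4 of 6 replicates and Rrm1 in 2.

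**Figure D4:**
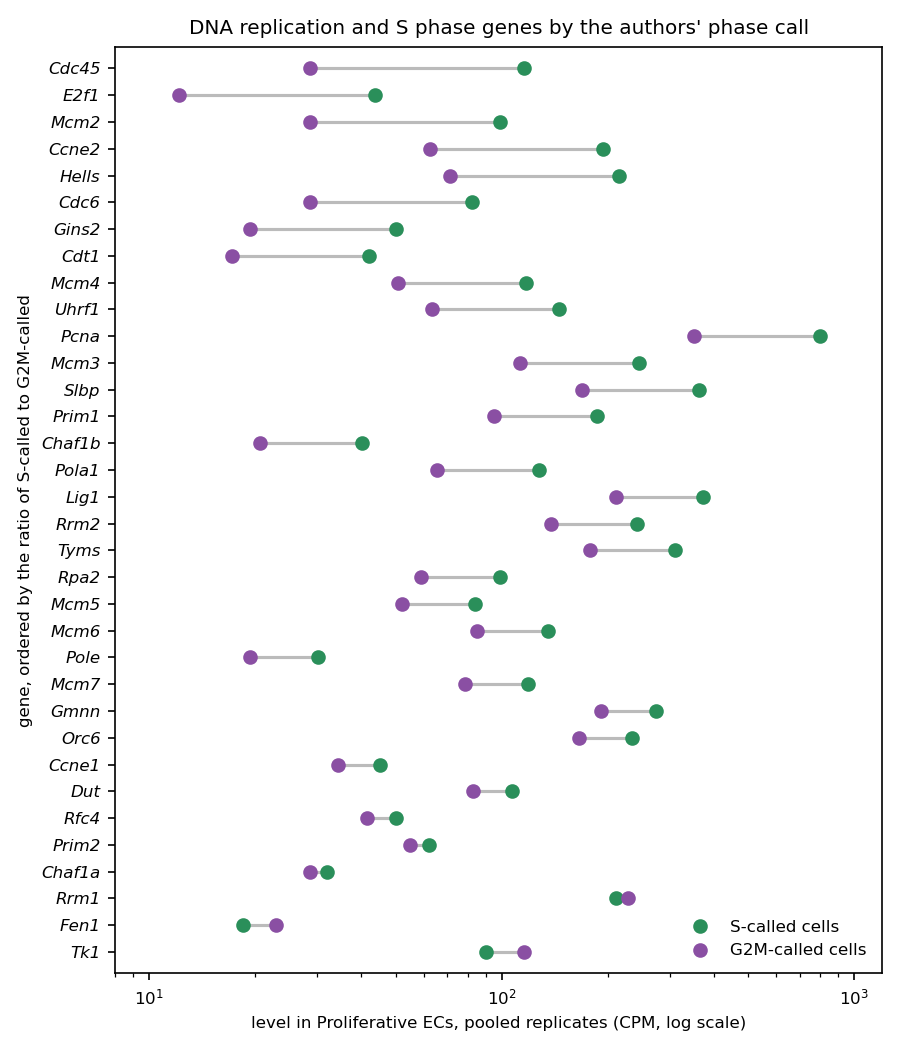
Level of each of the 34 genes (CPM of pooled UMIs, log scale, horizontal axis) in the S-called (green) and G2M-called (purple) Proliferative ECs, ordered by the ratio of the 2 calls. The points are widest apart for Cdc45 (4.06 times) and reversed for Rrm1, Fen1 and Tk1.

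Across 50 sums of at least 10 cells, the 34 genes differed in how closely each followed the sum of the others. Pearson's r between a gene and the sum of the other 33 was 0.918 for Ccne2, 0.891 for Tyms and 0.871 for Uhrf1, had a median of 0.626, and was lowest for Pole (0.03) and Prim2 (0.15). Among 7709 genes with a mean of at least 20 CPM and outside the lists, those most like the summed 34 genes were Pclaf (0.956), whose protein binds PCNA, H2afz (0.901), a histone variant, Hmgb2 (0.896), a chromatin protein, Cks1b (0.891), a subunit of cyclin-dependent kinases, and Smc2 (0.890), a condensin subunit. These sums share libraries and depth, and the r values are a description. In the smallest sums 1 UMI weighs heavily. For Cdc45, 1 UMI made 193 CPM in Neurons of eNOS+/+ replicate 2, above its highest value in Proliferative ECs (65.9 CPM). The part of such counts in the low r of sparse genes was not tested.

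The genotypes were then compared in the 3 EC labels, all ECs, Mural cells and Immune cells with edgeR's quasi-likelihood test over all genes, adjusted by the Benjamini-Hochberg method with a limit of 0.05. None of the 34 genes that could be tested passed in these fits, and the other labels had no fit between genotypes. After the filter on low counts 24 of the 34 were tested in Proliferative ECs, 22 in Structural ECs, 7 in Tip ECs, 34 in all ECs and 10 in Mural cells, and 0 passed in each, where 0.0217%, 0.0264%, 0.0181%, 0.0211% and 0% of all genes tested passed. In Immune cells 0 of the 34 could be tested (4.53% of the genes tested there had an unadjusted p under 0.05). At an unadjusted p under 0.05 there were 1, 1, 1, 3 and 0 of the 34 genes, against 6.38%, 5.52%, 4.95%, 5.78% and 5.78% of all genes tested. DESeq2 also called 0 of them in each of these 5 sets, with 1, 1, 1, 1 and 0 at an unadjusted p under 0.05. The median log2 fold change of eNOS-/- over eNOS+/+ was -0.05 in Proliferative ECs (11 higher, 13 lower), -0.05 in Structural ECs (9 higher, 13 lower), 0.01 in Tip ECs (4 higher, 3 lower), -0.11 in all ECs (12 higher, 22 lower) and -0.29 in Mural cells (3 higher, 7 lower), beside medians of all genes of 0.00 to 0.08. The replicates did not overlap between genotypes for 1 of the 24 genes in Proliferative ECs (4.17%, against 10.8% of all genes tested), 2 of 22 in Structural ECs (9.09%, against 10.5%), 1 of 7 in Tip ECs (14.3%, against 10.3%) and 3 of 34 in all ECs (8.82%, against 10.4%). Over all 34 genes in Proliferative ECs, tested or not, 4 did not overlap (Cdc6, Cdt1, Gmnn and Chaf1a). Of these only Gmnn passed the filter, while Cdc6, Cdt1 and Chaf1a had 89, 49 and 59 UMIs there. Chaf1a had 0 UMIs in eNOS-/- replicate 3, which allows up to 38.4 CPM. The share over all genes, tested or not, was not computed, so no excess is read from this count.

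In Proliferative ECs the smallest p among the 34 was that of Gmnn. Its levels, 149.8, 126 and 169.6 CPM against 219.9, 270.4 and 294 CPM, did not overlap, with 148 ± 21.8 CPM (SD, n = 3) in eNOS+/+ and 261 ± 37.9 CPM (SD, n = 3) in eNOS-/- (log2 fold change 0.78 ± 0.26 SE, adjusted p = 0.512, edgeR). Every eNOS-/- replicate was above every eNOS+/+ replicate, but the difference did not pass the correction. In Structural ECs Gmnn overlapped, at 67.4, 40.5 and 69.3 CPM against 66.3, 54.6 and 63.5 CPM. Prim1 was at 126, 90.0 and 47.3 CPM against 136, 152 and 76.7 CPM (0.64 ± 0.34 SE, adjusted p = 0.832) and Tyms at 140.1, 229 and 149.9 CPM against 199, 284 and 230.2 CPM (0.48 ± 0.27 SE, adjusted p = 0.836), both with overlapping replicates. Pcna, with 551, 234 and 299.7 CPM against 510.1, 622 and 281 CPM, varied more within a genotype than between them.

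In Structural ECs Hells was at 59.9, 56.7 and 45.3 CPM in the eNOS+/+ replicates against 34.04, 33.1 and 14.9 CPM in the eNOS-/- replicates. The groups did not overlap (54.0 ± 7.64 against 27.4 ± 10.8 CPM, SD, n = 3 each), but the change of -0.84 ± 0.34 SE on the log2 scale had an adjusted p of 0.868 (edgeR). Orc6 was higher without overlap in the same label, at 47.4, 64.8 and 63.0 CPM against 74.2, 88.5 and 105 CPM (0.56 ± 0.29 SE, adjusted p = 0.895). Slbp was at 137, 174 and 95.7 CPM against 100.4, 99.3 and 74.7 CPM and overlapped (-0.51 ± 0.27 SE, adjusted p = 0.895).

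In Tip ECs Prim2 had the smallest p, at 69.1, 96.2 and 69.4 CPM against 35.9, 29.3 and 63.1 CPM. These did not overlap (log2 fold change -1.02 ± 0.39 SE, adjusted p = 0.756, edgeR). Pcna (0.65 ± 0.35 SE) and Orc6 (0.57 ± 0.49 SE) followed, both with overlapping replicates and an adjusted p of 0.985. Dut, which clears dUTP from the nucleotide pool, was too sparse in Tip ECs to be tested with all 6 replicates, at 18.4, 37.4 and 21.0 CPM against 3.99, 0 and 0 CPM on 23 UMIs. A count of 0 allows up to 4.19 CPM in eNOS-/- replicate 2 and up to 21.0 CPM in eNOS-/- replicate 3, and the latter reaches into the eNOS+/+ values.

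Over all ECs Chaf1a was at 35.2, 10.7 and 15.8 CPM against 9.50, 10.7 and 8.19 CPM. The groups overlapped by a narrow margin, 10.66 against 10.72 CPM (-1.07 ± 0.44 SE, adjusted p = 0.824, edgeR). Gmnn was at 74.0, 62.5 and 72.2 CPM against 102, 106 and 86.0 CPM without overlap (0.49 ± 0.21 SE, adjusted p = 0.824), and Dut at 59.4, 54.8 and 41.4 CPM against 31.1, 23.1 and 51.2 CPM with overlap (-0.68 ± 0.31 SE, adjusted p = 0.858). In Mural cells, where 2 eNOS+/+ replicates had enough cells, Orc6 (-1.68 ± 0.87 SE, adjusted p = 0.814), Tyms (-1.22 ± 0.78 SE, adjusted p = 0.824) and Rrm2 (-1.57 ± 1.08 SE, adjusted p = 0.837) had the smallest p on 30, 33 and 21 UMIs.

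**Figure D5:**
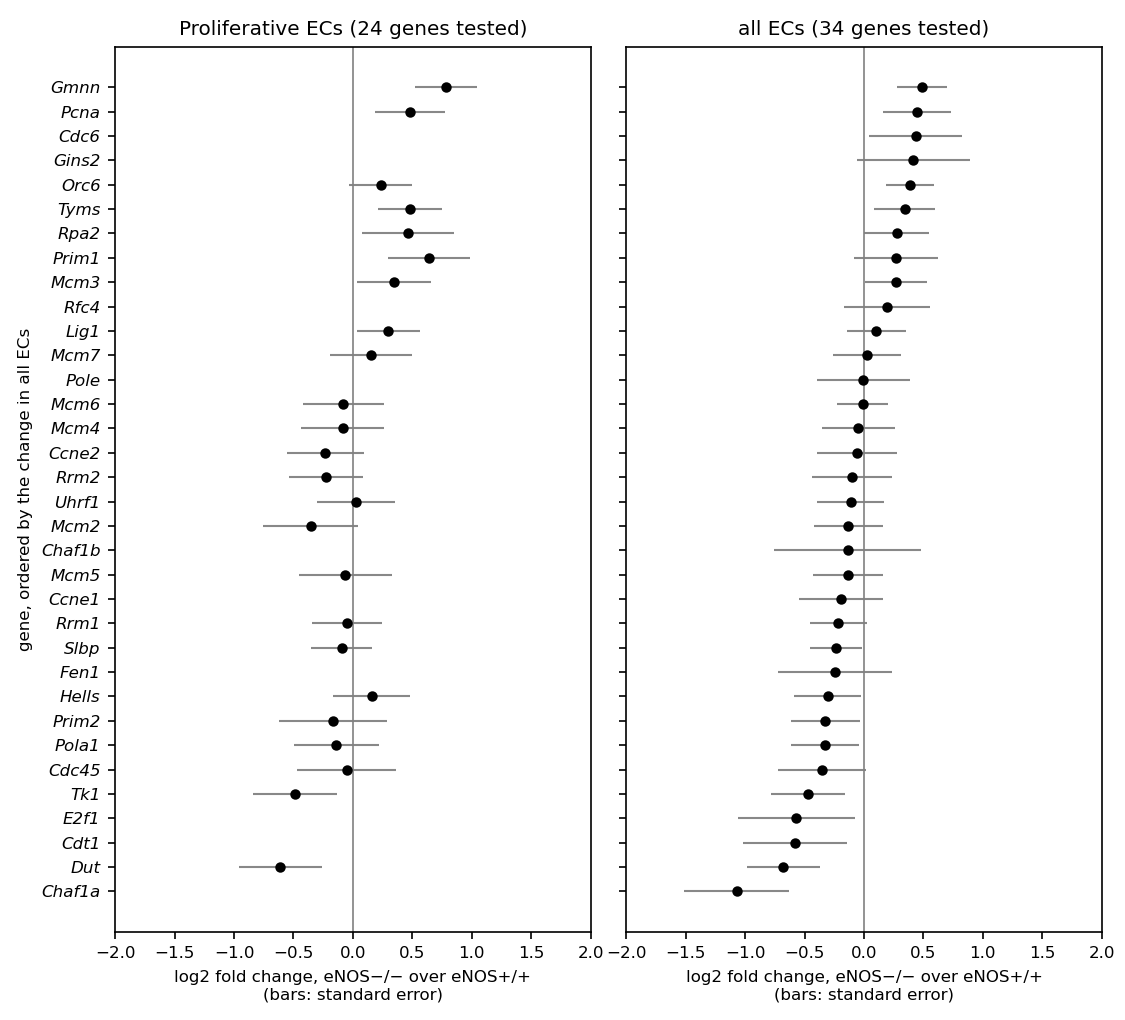
Log2 fold change of eNOS-/- over eNOS+/+ (horizontal axis, bars are standard errors) for the 24 genes tested in Proliferative ECs (left) and the 34 tested in all ECs (right), ordered by the change in all ECs. Gmnn lies farthest right in both panels, at 0.78 and 0.49, and no gene passed the adjusted limit.

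Whether the genotype change of a gene differed between the EC subtypes was tested with an interaction term in 1 fit over the 3 labels. Of 30 genes of the list that could be tested 0 passed, where 0% of 7019 genes passed (edgeR). Dut had the only unadjusted p under 0.05 (adjusted p = 1.00), against 3.43% of all genes tested. Without eNOS-/- replicate 3 the number of genes called rose from 1 to 73 in Proliferative ECs, from 2 to 28 in Structural ECs, from 1 to 25 in Tip ECs and from 2 to 78 in all ECs, or 1.39%, 0.317%, 0.353% and 0.745% of genes tested, and still 0 of the 34 genes passed. In that fit of Proliferative ECs 5 of 26 genes had an unadjusted p under 0.05, against 10.2% of all genes tested, namely Gmnn (0.72 ± 0.27 SE), Pcna (0.66 ± 0.25 SE) and Prim1 (0.75 ± 0.32 SE) with higher and Dut (-0.80 ± 0.33 SE) and Chaf1a (-1.21 ± 0.53 SE) with lower values, and the smallest adjusted p was 0.233. In Structural ECs these were 2 of 28 genes (9.49% of all genes), in Tip ECs 3 of 11 (8.07%) and in all ECs 4 of 34 (10.4%). Over the 3 EC labels the smallest adjusted p without that replicate was 0.122, for Dut in Tip ECs.

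Of the other cell cycle lists none had a gene that passed in Proliferative ECs. Of 43 further replication genes 27 were tested in Proliferative ECs (16 higher, 11 lower, 0 passed, 1 with p under 0.05, edgeR), and the smallest p values belonged to Pold3, a polymerase delta subunit (0.82 ± 0.34 SE, adjusted p = 0.710), Clspn, a checkpoint mediator (0.51 ± 0.29 SE, adjusted p = 0.837), and Rfc5, a clamp loader subunit (-0.80 ± 0.46 SE, adjusted p = 0.854). All 24 mitosis genes were tested there (8 higher, 16 lower, 0 passed, 0 with p under 0.05), led by Bub1 (0.56 ± 0.31 SE), Kif11 (0.44 ± 0.31 SE) and Cenpa (-0.33 ± 0.26 SE). Of 18 genes of cell cycle control 9 were tested (8 higher, 1 lower, 0 passed, 2 with p under 0.05). Of all genes tested in Proliferative ECs 0.0217% passed, 6.38% had an unadjusted p under 0.05 and 10.8% did not overlap between genotypes. Cyclin D1 (Ccnd1), which drives entry into the cycle, was at 135, 184 and 118 CPM against 230.4, 264 and 192 CPM, without overlap (0.71 ± 0.27 SE, adjusted p = 0.627). The inhibitor p27 (Cdkn1b) was at 126, 76.5 and 118 CPM against 166, 193 and 192 CPM, also without overlap and in the same direction (0.77 ± 0.29 SE, adjusted p = 0.627), and Ccna2 changed by -0.46 ± 0.31 SE (adjusted p = 0.881). The further replication genes rose less steeply with the label than the 34, at 1.87 to 2.36 times in Proliferative over Structural ECs within a replicate.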

How the data were processed

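Drop-seq libraries of CD31-enriched P14 OIR retina (3 eNOS+/+ and 3 eNOS-/- replicates) were aligned by the authors to GRCm38 with kb-python and processed in Seurat 3, and cells with under 100 genes or over 10% mitochondrial UMIs were removed. The deposited table holds raw UMI counts, and a deposited table of cells gives replicate, genotype, label, percent of mitochondrial UMIs, a phase call and its score by the authors, with 9 of its columns not used. One of these puts the cells of eNOS+/+ replicate 2 under the library name of eNOS+/+ replicate 1, while their barcodes carry a suffix of their own. The replicate column, whose names match the sample labels, was used, and the reason for the difference is not given in the sources used here. Doublets were not called here. UMIs were summed per label and replicate and scaled to CPM, and sums of under 10 cells entered no fit. Genotypes were compared with edgeR 4.0.16 (filterByExpr, TMM, quasi-likelihood) and DESeq2 1.42.0 in R 4.3.3, other values with Python 3.11.15, numpy 2.4.6, scipy 1.17.1 and pandas 2.3.3. Shares have 95% Wilson intervals. The edgeR script was tested on simulated data and recovered 173 of 200 genes changed by 2 on the log2 scale among 4493 tested in Proliferative ECs, 164 of 200 among 7558 in Structural ECs and 159 of 200 among 5449 in Tip ECs, with 6, 11 and 2 false calls. Smaller changes, such as the 0.78 of Gmnn in Proliferative ECs, were not simulated, so recovery at that size is not known.

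The genes and lists were chosen with earlier results of these data known. Values in every replicate are given for Mcm2 to Mcm7, Pcna, the 2 genes of each role with most UMIs in Proliferative ECs, and the 3 of smallest p in each fit. Of other lists the 3 genes of smallest p in Proliferative ECs are named. Rrm2 in Proliferative ECs, Mural values, and Dut in Tip ECs were added after their values were seen. Replicates pool retinas, and p-values measure the spread between them. Fits were repeated with DESeq2, with RLE in place of TMM scaling, without the count filter, without each replicate in turn, with the replicate number as a block, with cells of at least 500 UMIs, and with 1 cell per family of barcodes that differ only in the last base. With equal replicate numbers, deviations from the genotype means correlated at -0.08 to 0.13, so the numbers pair no samples.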

Additional observations from a re-analysis of the deposited data

How the results depend on the processing

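Over 18 results and 147 alternatives, 138 values differed from the reported one by less than the spread between replicates, or were counts that stayed close to it, and 9 moved. The medians of the 34 genes, which lie near 0 and have no test, changed sign in places, to -0.02 with DESeq2 and -0.10 with the replicate block in Tip ECs, to 0.02 with cells of at least 500 UMIs and 0.02 with 1 cell per barcode family in Proliferative ECs, and in all 5 sets with some replicate left out, so no direction is read from them. The number of the 34 genes called between genotypes was 0 under every alternative run, DESeq2, RLE scaling, no filter, cells of at least 500 UMIs, 1 cell per barcode family and the replicate block included. The replicate block also raised the genes called among all genes from 2 to 11 in Structural ECs and from 1 to 3 in Proliferative ECs, but the numbers pair no samples, and it moved the median log2 fold change of the 34 genes in Mural cells from -0.29 to -0.59. Counting 1 cell per barcode family moved the median in Tip ECs from 0.01 to 0.26 with 6 genes tested. The cause was not tested. Leaving out each replicate in turn gave medians for Tip ECs from -0.25 to 0.10, for Structural ECs from -0.25 to 0.059, for Proliferative ECs from -0.03 to 0.13, for all ECs from -0.26 to 0.08 and for Mural cells from -0.58 to 0.29. The ratio of UMIs of the 34 genes to those of the mitosis genes in Proliferative ECs, 0.599 as a median of replicates, was 0.573 to 0.625 with replicates left out and 0.813 without Top2a and Mki67. The ratio of Mural to Structural ECs, 2.29, was 1.92 without the replicate of 3 Mural cells, an alternative chosen after the data were seen. The depth limits the sparse genes most, since 10 of the 34 could not be tested in Proliferative ECs and 27 in Tip ECs.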
